A study of Mus musculus with 6 samples.

Results

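Transfer RNAs carry amino acids to the ribosome, and the genes that encode them are short, numerous and transcribed by RNA polymerase III rather than by the polymerase that makes messenger RNA. Their promoter lies inside the gene, as the A box and the B box, which the factor TFIIIC binds. The factor TFIIIB is then placed upstream of the start and recruits the polymerase. Many tRNA genes lie in clusters, and copies with the same anticodon (the bases that read the codon) are often nearly identical in sequence. Acetylation of histone H3 at lysine 9 (H3K9ac) and crotonylation of the same lysine (H3K9cr) are both marks of active promoters.

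The tRNA genes were taken as all records of biotype tRNA on the assembled nuclear chromosomes of the RefSeq gene table (GRCm38.p6), without any use of the peaks. This gave 403 of 49595 gene records. A further 5 tRNA records, listed after the ordered records of chromosome 11 with coordinates that restart, were taken as scaffold or patch records and left out. Each tRNA gene was described by the peaks within 1 kb of it, by the amino acid and anticodon in its name, by genomic cluster, and by whether it lay over or under 5 kb from the nearest end of a protein-coding gene. Of the 403 genes, 297 lay over 5 kb from such an end and 106 lay closer.

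The study mapped both marks by native chromatin immunoprecipitation and sequencing in proliferating P19 cells, a line of mouse embryonal carcinoma cells that grows in medium with fetal bovine serum and can differentiate into several lineages. There were 2 H3K9cr libraries and 2 H3K9ac libraries, and 2 input libraries whose values were not analysed here. A single cell line, growth state and antibody per mark were used, so the 2 marks were compared within the same kind of cell and no treatment was compared. Nothing in the labels says that replicates came from separate cultures, so every p-value measures only the spread between these libraries, which may be technical.

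The authors' peak lists held 28360 and 28345 H3K9cr peaks and 26096 and 27474 H3K9ac peaks. How many reads each library held is unknown, so a gene without a listed peak had no signal past the authors' threshold, and weaker signal cannot be told apart from none. Within 1 kb of a gene end, all 5 embryonal markers examined (Pou5f1, Sox2, Nanog, Utf1 and Lin28a) had a peak in all 4 libraries. Among markers of other cell types, Alb, Hbb-bt and Krt5 had no peak in any library, whereas Col1a1 and Myod1 had one in all 4.

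Sequence from RefSeq (GRCm38.p6) was at hand for 4 tRNA genes, those that lie inside the window from 250 bases before to 50 bases after the start of a neighbouring gene. They are shown because the peaks described below flanked genes that hold this kind of internal promoter element. The sequences run 5′ to 3′ on the strand that holds the B box, and capitals mark the match to the B box motif searched, which reads GGTTC, any base, A, any 2 bases and CC.
n-TTagt9 (threonine, chr7:35234770-35234843, minus strand): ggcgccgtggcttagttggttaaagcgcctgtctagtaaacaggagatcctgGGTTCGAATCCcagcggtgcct
n-TRtcg5 (arginine, chr7:79466419-79466491, plus strand): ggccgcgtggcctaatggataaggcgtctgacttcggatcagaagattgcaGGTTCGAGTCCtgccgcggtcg
n-TAagc16 (alanine, chr13:21222586-21222657, plus strand): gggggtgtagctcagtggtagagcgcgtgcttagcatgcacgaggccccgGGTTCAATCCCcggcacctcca
n-TVcac9 (valine, chr13:23446142-23446214, minus strand): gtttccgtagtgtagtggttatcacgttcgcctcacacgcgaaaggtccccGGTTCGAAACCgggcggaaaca
The motif began at base 53, 52, 51 and 52 of these genes, in that order. On either strand it occurred in 261 of 32851 RefSeq promoter windows of 300 bases, or 0.794%, and in 7 of the 10 windows that touched a tRNA gene. A match of letters is a description and no measure of factor binding.

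All 4 of these genes had a peak within 1 kb in every library. At n-TTagt9, which lies 1390 bp from an end of Wdr88, the authors' fold enrichment over background was 47.2 and 43.8 for H3K9cr and 42.2 and 51.0 for H3K9ac. At n-TRtcg5, which lies in the window at the start of Polg, it was 93.0 and 86.1 for H3K9cr and 75.5 and 113 for H3K9ac. At n-TAagc16, 27863 bp from the nearest coding end, it was 55.1 and 55.0 for H3K9cr and 48.0 and 52.8 for H3K9ac. At n-TVcac9, 10770 bp from the nearest coding end, it was 94.0 and 105 for H3K9cr and 81.0 and 93.4 for H3K9ac. The values of the 2 marks overlapped at n-TTagt9 and n-TRtcg5, and both H3K9cr values were above both H3K9ac values at n-TAagc16 and n-TVcac9. Fold enrichment is the authors' own value per peak, and here the strongest peak within 1 kb was taken for each gene and library. It is not on one scale across lists, so here and below a higher value or an overlap between marks is a description only.

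Both marks lay within reach of most tRNA genes. A peak lay within 1 kb in all 4 libraries at 256 of the 403 genes (63.5%, 95% Wilson interval 58.7 to 68.1%). Over all gene records on the same chromosomes that share was 39.0%, over protein-coding records it was 67.3%, and over other records of up to 200 bp, which are as short as a tRNA gene, it was 10.4%. A gene of tRNA length placed at every position between the first and last gene record of each chromosome would have such a peak at 3.02% of positions. A further 136 tRNA genes had no peak in any library, 2 had peaks in both H3K9cr libraries and no H3K9ac library, none had the reverse, and 9 had peaks in some other combination of libraries. The count fell below most of the genes under stricter definitions, to 171 where a peak had to overlap the gene in all 4 libraries and to 177 where a summit had to lie within 1 kb. Neighbouring tRNA genes can share a peak, so the intervals given here cover counting only and treat genes as separate. The 256 genes drew on 159 distinct regions with a peak in all 4 libraries, of 31127 merged regions in the genome. Of these, 98 regions lay at 1 tRNA gene and 61 at several, up to 7.

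Each library taken alone gave nearly the same count. Peaks lay at 263 tRNA genes in both H3K9cr libraries and at 257 and 260 in the H3K9ac libraries. These are 65.3% of the genes for each H3K9cr library and 63.8% and 64.5% for the H3K9ac libraries.

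Up to 50 kb from protein-coding genes, the share of marked tRNA genes fell less than that of other short records. Of the 106 tRNA genes within 5 kb of a coding end, 89 had a peak in all 4 libraries (84.0%, 75.8 to 89.7%), where 35.3% of other short records at such distances did. Of the 297 genes over 5 kb away, 167 did (56.2%, 50.5 to 61.8%), where 3.51% of other short records did and 1.02% of all positions that far from coding ends would. Among other kinds of short RNA gene over 5 kb away, the share was 8.90% of miRNA, 3.67% of snRNA, 1.32% of snoRNA and 0.00% of rRNA records. These differences are given as shares with no test, since tRNA genes are not replicates of one another.

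In finer steps, a peak in all 4 libraries lay at 46 of 49 tRNA genes up to 1 kb from a coding end and at 43 of 57 between 1 and 5 kb. The share was then 78.5% between 5 and 10 kb (62 of 79), 73.8% between 10 and 20 kb (59 of 80) and 63.6% between 20 and 50 kb (42 of 66). Beyond 50 kb it was 5.56% (4 of 72), and 42 of those 72 genes belonged to the cysteine array of chromosome 6 described below. Without that array it was 70.0% between 20 and 50 kb (42 of 60) and 13.3% beyond (4 of 30). Other short records went from 57.6% up to 1 kb and 25.6% between 1 and 5 kb to 9.28%, 3.07%, 5.53% and 1.08% over the same later steps. From 1 to 50 kb the intervals of the steps overlapped for tRNA genes, and those of other short records did not all overlap. Genes that share peaks count as separate in these intervals, so the overlap cannot show that the share was level.

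**Figure D1:**
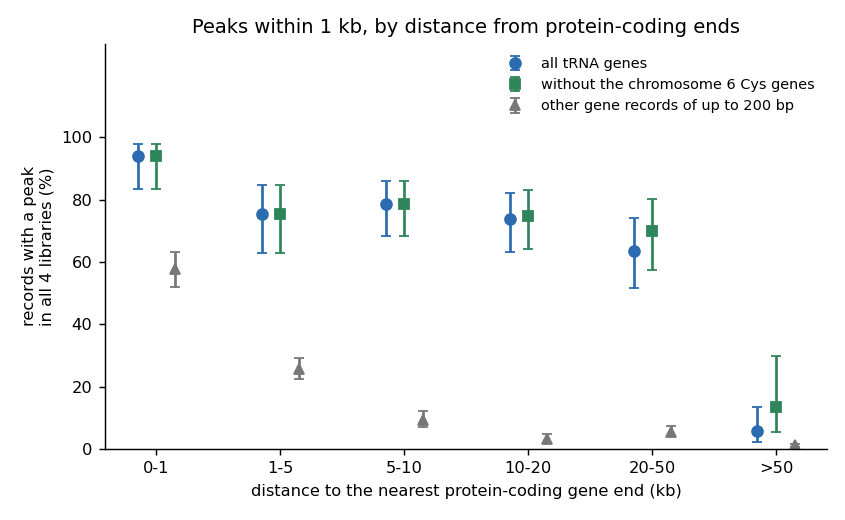
Share of records with a peak within 1 kb in all 4 libraries (vertical axis, percent) by distance to the nearest protein-coding gene end (horizontal axis, kb); points are all tRNA genes, tRNA genes without the chromosome 6 cysteine genes, and other gene records of up to 200 bp, and bars are 95% Wilson intervals. Between 5 and 10 kb the share was 78.5% for tRNA genes and 9.28% for other short records.

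The 4 genes beyond 50 kb that had peaks in all 4 libraries, named after their values were seen, were n-TNgtt9 on chromosome 2, n-TGgcc9 inside Trim2 on chromosome 3, n-TEttc7 on chromosome 7 and n-TEttc8 on chromosome 9. The most remote, n-TEttc7 (glutamate), lay 256756 bp from the nearest coding end, that of Atp10a. Its fold enrichment was 35.5 and 37.7 for H3K9cr and 25.1 and 41.7 for H3K9ac. At n-TNgtt9 (asparagine) the values were 45.9 and 49.9 for H3K9cr and 34.5 and 50.4 for H3K9ac. The ranges of the 2 marks overlapped at both genes. Genes that lay over 5 kb from the ends of every other kind of gene record as well, lncRNA and pseudogene records included, kept a share of 47.3% (88 of 186). The 34 tRNA genes inside a protein-coding gene had a share of 38.2% (13 genes), against 65.9% of the 369 outside (243 genes).

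Every amino acid had at least 1 tRNA gene with a peak in all 4 libraries, so the marked genes together covered all 20. Arginine led, with 23 of 24 genes (95.8%), followed by tyrosine with 9 of 10, and by proline with 14 of 16, tryptophan with 7 of 8, serine with 19 of 22 and phenylalanine with 6 of 7. Threonine (14 of 17), valine (18 of 22), leucine (19 of 25), and glutamine, isoleucine and methionine (12 of 16 each) followed. Aspartate had 10 of 16, asparagine 8 of 13, lysine 16 of 26, glutamate 12 of 20, alanine 19 of 33, histidine 6 of 11 and glycine 15 of 28 (53.6%). Cysteine stood lowest, with 5 of 57 (8.77%, 3.81 to 18.9%). Intervals of neighbours in this order overlapped, except for glycine (35.8 to 70.5%) and cysteine. That of arginine (79.8 to 99.3%) was apart from those of glycine, alanine, lysine, glutamate, histidine and cysteine. The cysteine genes include the array of 49 genes on chromosome 6 described below. Genes that share peaks count as separate in these intervals, which are no test between amino acids.

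**Figure D2:**
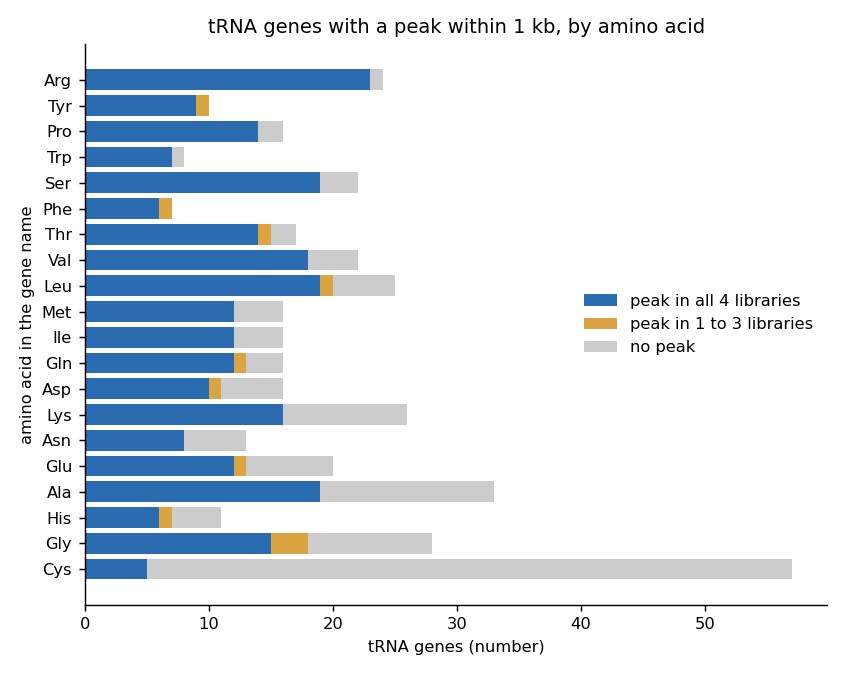
Number of tRNA genes (horizontal axis) by the amino acid in the gene name (vertical axis), with the part that had a peak within 1 kb in all 4 libraries shown apart from the rest. Cysteine has the most genes, 57, of which 5 had such a peak, and arginine had 23 of 24.

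By anticodon, 46 of the 48 in the table had at least 1 marked gene, and for 16 every gene was marked. The exceptions were single-gene anticodons, His-ATG (n-THatg1, with no peak closer than 164296 bp) and Ser-GGA (n-TSgga1, with none closer than 6788 bp). Genes for one amino acid differed by anticodon. Among alanine genes, 12 of 13 with the anticodon AGC were marked, but 3 of 9 with CGC and 4 of 11 with TGC. Of the CGC and TGC genes, 12 lay on the X chromosome, where 1 was marked, and 8 lay elsewhere, where 6 were. Among glycine genes, 2 of 6 with CCC were marked, against 8 of 14 with GCC and 4 of 7 with TCC.

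All 16 methionine genes carry the anticodon CAT in their names, which does not separate the initiator tRNA from the elongator. The 12 marked ones lay on chromosomes 3, 8, 13 and 15. The other 4, n-TMcat10, n-TMcat12, n-TMcat3 and n-TMcat4, had no peak in any library. The strongest was n-TMcat9 (chr13:23530348-23530419), 625 bp from the histone gene H4c8, with fold enrichment of 140 and 162 for H3K9cr and 100 and 142 for H3K9ac. The ranges of the 2 marks overlapped there. The table used here holds no record named for selenocysteine.

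Marked and unmarked tRNA genes lay in different clusters more often than mixed within one. Joined where they lay within 10 kb of each other, 293 genes formed 64 clusters and 110 stood alone. In 40 clusters every gene was marked (141 genes), in 11 none was, and 13 were mixed. Several of those 11 were parts of the cysteine array of chromosome 6 described below, split by gaps over 10 kb. Clusters of 2 genes are also more easily all of one kind than larger ones. The share was 51.8% for genes that stood alone (57 of 110), 77.8% in clusters of 2 (42 of 54), 76.3% in clusters of 3 to 5 (61 of 80) and 60.4% in clusters of 6 or more (96 of 159). Among genes over 5 kb from coding ends and outside the cysteine array of chromosome 6, these shares were 35.2% (25 of 71), 71.9% (23 of 32), 82.1% (46 of 56) and 82.0% (73 of 89). Genes in a cluster share peaks, which alone can make them alike.

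Chromosome 13 held the most tRNA genes, 105, and 93 of them were marked (88.6%). They included a cluster of 15 genes for 7 amino acids at chr13:21907111-21940995, of which 14 were marked. A cluster of 14 genes for 9 amino acids at chr13:23425646-23453514 had 13 marked. In the first, the strongest peak in each library had a fold enrichment of 35.2 and 54.7 for H3K9cr and 32.2 and 59.8 for H3K9ac. In the second these values were 105 and 111 for H3K9cr and 86.8 and 117 for H3K9ac. Clusters at chr13:21160785-21172942 (9 genes) and chr13:21234045-21279768 (10 genes) had 9 and 7 marked. On the X chromosome 2 of 17 were marked, among them n-TAtgc1, 401 bp from an end of Tceal3.

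The cysteine genes of chromosome 6 had no peak at all. The 49 genes lie along 385 kb (chr6:47978997-48363603), and 0 of 49 had a peak in any library, which allows a share of up to 7.27% (Wilson). The distance from these genes to the nearest peak of any library was 7429 bp at the least, 57834 bp at the median and 106049 bp at the most. Each library listed 5 peaks within the span, so the region was not without peaks. The 3 parts of the array among the 8 largest clusters held 22, 10 and 9 genes (chr6:48244316-48317586, chr6:48332840-48363603 and chr6:48133937-48164172) and no peak. Of the 8 cysteine genes elsewhere, 5 were marked, 4 of them on chromosome 11. The remaining one, n-TCgca52 on chromosome 17 (chr17:71599271-71599342), lay 9738 bp from a coding end and had fold enrichment of 80.4 and 102 for H3K9cr and 55.0 and 111 for H3K9ac, which overlap. Near-identical copies can lose reads when only uniquely placed reads are kept; the lists hold no measure of how well a region can be mapped, and the part of mapping in this result was not tested.

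On chromosome 1, marked and unmarked tRNA genes lay close together at genes of the Fc gamma receptor family, which bind antibodies on immune cells. A group of 5 genes at chr1:171033942-171045055 was marked in full. Of these, n-TDgtc4, n-TGtcc2 and n-TLcag3 shared a peak with fold enrichment of 66.1 and 69.4 for H3K9cr and 44.7 and 74.9 for H3K9ac. The next cluster, 15 genes for aspartate, glutamate, glycine and leucine at chr1:171064164-171081946, had none marked in all 4 libraries. In it 12 genes had no peak, and n-TEctc5, n-TGtcc1 and n-TDgtc3, inside Fcgr3, had a peak of 13.9-fold in H3K9cr replicate 1 and 18.6-fold in H3K9ac replicate 2 and none in the other libraries. Both groups hold genes with the same anticodons, for aspartate, glycine and leucine. In the unmarked cluster the same order of anticodons recurs from one end to the other. The part of mapping in its values was not tested.

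The peaks at tRNA genes were stronger and longer than most. Since fold enrichment is not on one scale across lists, each peak was ranked within its own library, from 0 for the weakest to 100 for the strongest. At the 256 marked genes the median percentile was 73.9 and 75.0 for H3K9cr and 69.4 and 71.6 for H3K9ac, where the median of a list is 50 by construction. The peak was above its list's median at 89.1% and 89.8% of the genes for H3K9cr and 84.4% and 89.5% for H3K9ac. It was past percentile 90 at 19.9% and 20.7% for H3K9cr and 18.4% and 21.5% for H3K9ac. A gene with several peaks in reach was given its strongest, which raises these percentiles. The genes were also chosen for a peak in all 4 libraries, while the lists include peaks found in fewer libraries. The value of 50 is therefore no matched reference for them. A peak shared by several tRNA genes was counted once for each.

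Peaks counted once each gave the same order. Of the peaks with a summit over 5 kb from every coding end, 111 and 108 H3K9cr peaks and 113 and 110 H3K9ac peaks lay within 1 kb of a tRNA gene. Their median fold enrichment was 31.6 and 34.2 for H3K9cr and 26.4 and 37.0 for H3K9ac. Other peaks with a summit that far from coding ends had medians of 9.11 and 8.91 for H3K9cr and 8.52 and 9.80 for H3K9ac. The peaks at tRNA genes were also longer, with a median of 1900 and 1953 bp in the H3K9cr lists and of 1696 and 1797 bp in the H3K9ac lists. The median of the other distal peaks was 710 and 736 bp in the H3K9cr lists and 674 and 707 bp in the H3K9ac lists. Within each library both medians at tRNA genes were more than those of the other distal peaks, without a test, since peaks of a library are not replicates. A peak counted as at a tRNA gene where any part of it lay within 1 kb, which favours longer peaks.

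**Figure D3:**
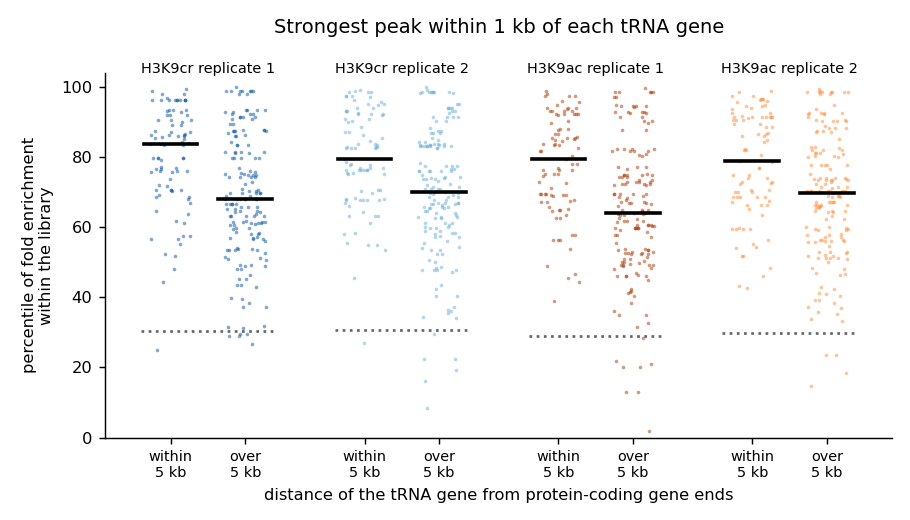
Percentile of fold enrichment within the library (vertical axis) of the strongest peak within 1 kb of each tRNA gene with a peak in all 4 libraries, one point per gene and library, split by distance from protein-coding gene ends over or within 5 kb (horizontal axis); black bars are medians, and dotted lines are the medians of distal peaks away from tRNA genes (30.4, 30.6, 28.9 and 29.7 from left to right). Medians over 5 kb were 68.0 and 70.1 for H3K9cr and 64.1 and 69.8 for H3K9ac, and within 5 kb they were 83.7, 79.6, 79.4 and 78.8 in the same order. The dotted lines count every peak once, whether or not other libraries share it, so they are not matched to the points. Counted that way, distal peaks at tRNA genes had median percentiles of 61.5 and 64.3 for H3K9cr and 59.3 and 62.4 for H3K9ac.

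Over 5 kb from coding ends, the strongest gene was n-TAagc8 (alanine, chr4:132516008-132516079), 5552 bp from Sesn2. Its fold enrichment was 206 and 242 for H3K9cr and 171 and 215 for H3K9ac. Its lowest percentile over the 4 libraries was 99.5. The nearest summit lay 1389 and 1401 bp from this gene for H3K9cr and 149 and 1400 bp for H3K9ac. The merged region there came to 2606 bp from a coding end, closer than the gene. By the lowest percentile over the libraries, n-TAagc8 was followed by n-TKctt30 (lysine), n-THgtg3 (histidine), n-TRtct2 (arginine), n-TAagc13 (alanine) and n-TEctc13 (glutamate). Their values ran from 86.8 at n-TAagc13 in H3K9ac replicate 1 to 177 at n-TKctt30 in H3K9ac replicate 2. Within 5 kb of coding ends the leaders were n-TRcct1 (arginine, 858 bp from Fmc1), n-TNgtt8 (asparagine, 15 bp from Pcgf2), n-TMcat9, n-TRcct3 (arginine), n-TEctc12 (glutamate) and n-TIaat5 (isoleucine). At n-TRcct1 the values were 141 and 159 for H3K9cr and 103 and 178 for H3K9ac. The values of the 2 marks overlapped at all of these 12 genes. At n-TKctt30, n-TRcct1, n-TNgtt8 and n-TEctc12 the nearest summit was over 1 kb from the gene in all 4 libraries.

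**Figure D4:**
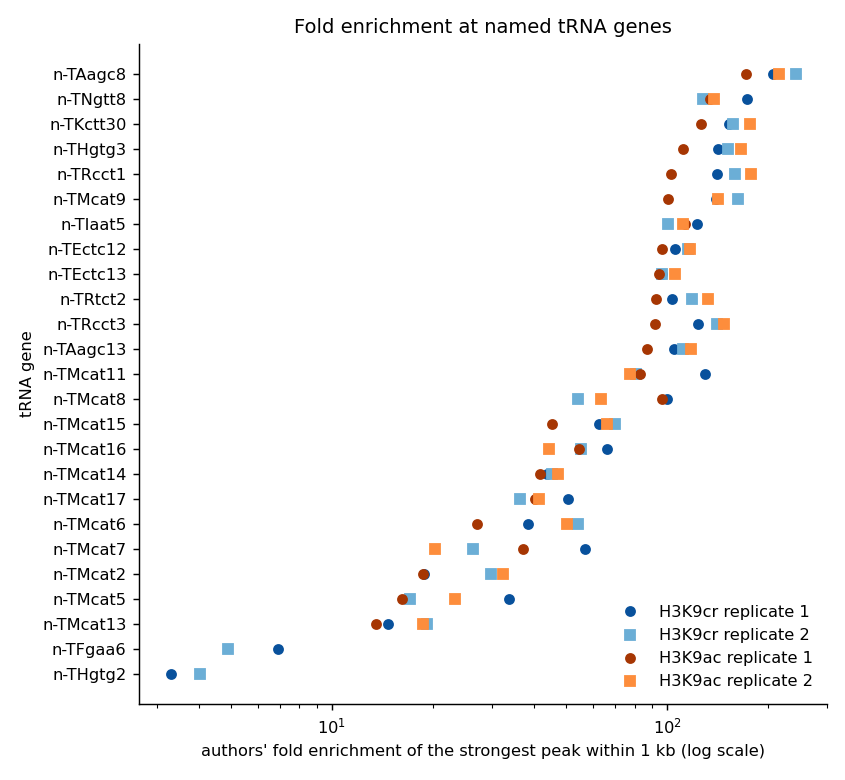
Authors' fold enrichment (horizontal axis, log scale) of the strongest peak within 1 kb at the named tRNA genes (vertical axis), one point per library, coloured by mark. The 4 points of n-TAagc8 run from 171 to 242, and the highest point of any other gene is 178, at n-TRcct1.

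Across the 159 regions shared by all libraries, the order of fold enrichment was alike in every pair of libraries. Spearman's rho was 0.883 between the H3K9cr libraries and 0.877 between the H3K9ac libraries. It was higher between an H3K9cr and an H3K9ac library of the same replicate number, 0.968 and 0.980, and 0.877 and 0.882 for the pairs with different numbers. These values are descriptions across regions, which are not replicates, and the pairs share regions and annotation.

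Peak summits flanked the tRNA genes and did not fall on them. Within 1 kb lay 159 and 157 H3K9cr summits and 166 and 158 H3K9ac summits, and none of them was inside a tRNA gene. From 1 to 100 bp away there were 3 and 1 for H3K9cr and 0 and 1 for H3K9ac. Past 200 and up to 500 bp there were 103 and 110 for H3K9cr and 110 and 108 for H3K9ac. Per kb of sequence at that distance, this was 0.522 and 0.557 summits for H3K9cr and 0.557 and 0.547 for H3K9ac, against 0.0272, 0.00906, 0 and 0.00906 over the gene and its first 100 bp. The highest density lay 301 to 400 bp from the gene in each library, with 46 and 45 summits for H3K9cr and 51 and 53 for H3K9ac. Farther out, past 500 and up to 1000 bp, it was 0.131, 0.131, 0.120 and 0.131 summits per kb. The gene table used here gives no strand, so upstream and downstream sides were not told apart. A summit lay within 1 kb in all 4 libraries at 177 genes, so the profile does not describe every marked gene. The part of mapping in the lack of summits inside the genes was not tested.

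**Figure D5:**
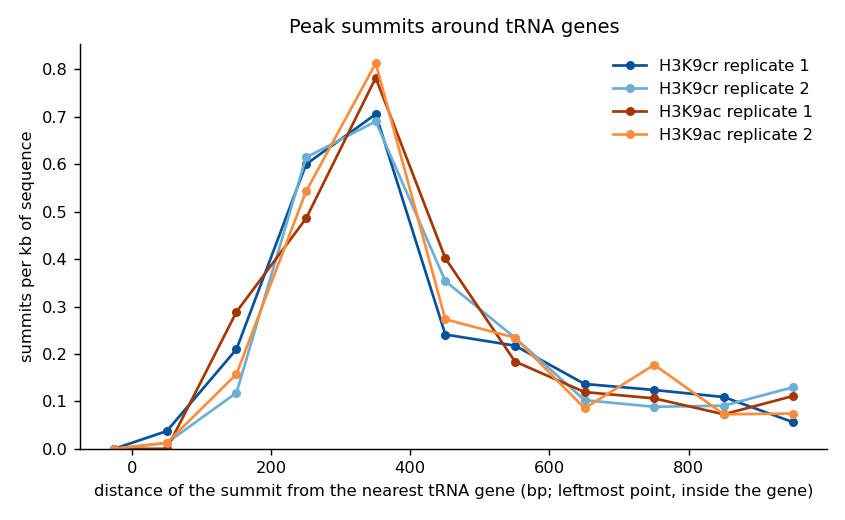
Peak summits per kb of sequence (vertical axis) by distance from the nearest tRNA gene (horizontal axis, bp), one line per library. The density is 0 inside the gene in all 4 libraries and highest at 301 to 400 bp.

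The peaks themselves often spanned the gene. A peak overlapped the gene at 204 and 208 of the 256 marked genes for H3K9cr (79.7% and 81.3%) and at 180 and 198 for H3K9ac (70.3% and 77.3%). At the 167 marked genes over 5 kb from coding ends, the middle of the gene was covered in 73.7% and 76.6% for H3K9cr and 64.7% and 70.7% for H3K9ac. The positions 200 bp away were covered in 82.6% and 83.8% for H3K9cr and 79.3% and 82.6% for H3K9ac. Coverage was thus lower at the gene than beside it in each of the 4 libraries. The part of fragment size and mapping in this dip was not tested.

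Between the marks, no difference at tRNA genes passed a test. H3K9cr libraries had a peak at 263 ± 0 genes and H3K9ac libraries at 258.5 ± 2.12 (SD, n = 2 each; exact two-sided permutation p = 0.333, the smallest that 2 against 2 libraries allow). The median percentile of fold enrichment was 74.5 ± 0.775 for H3K9cr and 70.5 ± 1.56 for H3K9ac (exact permutation p = 0.333). From gene to summit, the median distance was 486.5 ± 4.95 bp in H3K9cr libraries against 468 ± 32.9 bp in H3K9ac libraries (exact permutation p = 1). Within 1 kb of the gene, peaks covered a median of 1769 ± 40.0 bp in H3K9cr libraries against 1711.5 ± 46.0 bp in H3K9ac libraries (exact permutation p = 0.667). The counts and percentiles did not overlap between the marks, while the summit distances and covered lengths did. The H3K9cr lists as a whole were also longer, at 28352.5 ± 10.6 peaks against 26785 ± 974, and with the strongest 26096 peaks of each list the difference in genes with a peak went from 4.5 to 2 (exact permutation p = 0.667). That in covered length stayed at 57.25 bp. The difference in percentile stayed at 3.98, but its ranks were still those of the full lists, so it cannot show what list length does.

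Gene by gene, the length covered by peaks was tested with limma across 20270 features, which were the tRNA genes and the ends of all other gene records with a peak in all 4 libraries. None of the 256 tRNA genes was wider for H3K9cr or for H3K9ac at a limma adjusted p of 0.05, and of all features 0.00% were called in either direction. The measure stops at the full window. Peaks covered all of it at 86 and 86 of these genes in the H3K9cr libraries and at 62 and 89 in the H3K9ac libraries. A gene covered in full in all 4 libraries could not show a difference. At an unadjusted p of 0.05, 10 tRNA genes were wider for H3K9cr and 3 for H3K9ac, which is 5.08% of them, where 4.57% of all features passed (609 wider for H3K9cr and 317 wider for H3K9ac). The lowest adjusted p in limma, 0.370, was that of n-TMcat2 (methionine), where peaks of the H3K9cr libraries covered 1102 and 1189 bp and those of the H3K9ac libraries 706 and 678 bp. Its groups did not overlap, and the limma estimate, after centring each library on its median, was 401 bp wider for H3K9cr (SE 55.5). The largest raw difference towards H3K9cr was at n-TRtcg3 (arginine), with 2073 and 1783 bp against 1336 and 1508 bp. The largest towards H3K9ac was at n-TQctg2 (glutamine), with 1419 and 1317 bp for H3K9cr against 1680 and 1546 bp. After centring, the median difference was -47.75 bp over tRNA genes and -31.0 bp over all features. Genes covered in full in all 4 libraries, such as n-TRcct1, had a centred estimate of -53 bp from equal raw lengths. Without centring both medians turned, to 5.25 bp and 22 bp wider for H3K9cr. Without centring the unadjusted calls were 1323 and 209 over all features and 15 and 3 among tRNA genes, again with none at an adjusted p of 0.05.

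Genes with one mark alone were few and weakly enriched. H3K9cr alone was listed at 2 tRNA genes, where 0.266% of all gene records had H3K9cr alone and 0.0343% had H3K9ac alone, which no tRNA gene had. At n-TFgaa6 (phenylalanine, chr19:12002236-12002308) the H3K9cr fold enrichment was 6.91 and 4.88. At n-THgtg2 (histidine, chr3:96435972-96436043, inside BC107364) it was 3.30 and 4.05. Both were below the list medians of 19.7 and 18.7. The 9 genes in other combinations included n-TYgta6 (tyrosine), with 111 in H3K9cr replicate 2 and 86.8 in H3K9ac replicate 1 and no peak in reach in the other libraries. They also included n-TTcgt4 (threonine), with 5.42 and 10.8 for H3K9cr and 17.0 in H3K9ac replicate 2 alone.

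Of the 136 tRNA genes without a peak, 49 were the chromosome 6 cysteine genes. Among the other 87, 51 stood alone, and the nearest peak of any library was 12598 bp away at the median. For 15 of them it was within 5 kb.

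The protein machinery of tRNA synthesis carried both marks almost throughout. A peak lay within 1 kb of a gene end in all 4 libraries for all 18 genes of RNA polymerase III subunits, where 61.8% of all protein-coding genes had one. They included Polr3a, the largest subunit, with 48.1 and 82.2 for H3K9cr and 47.9 and 91.2 for H3K9ac. Both forms of one subunit were marked, Polr3g at 30.8 and 35.4 for H3K9cr and 33.1 and 49.3 for H3K9ac, and Polr3gl at 31.6 and 29.3 for H3K9cr and 22.4 and 29.0 for H3K9ac. Of 18 genes for initiation factors and their control, 17 were marked, among them Brf1 and Bdp1 of TFIIIB, Gtf3c1 of TFIIIC and the repressor Maf1. The exception, Snapc3, had peaks only farther inside the gene, in all 4 libraries. Of 22 genes for end processing, splicing and export of tRNA, 21 were marked, including the 3′ end nuclease Elac2 and the export receptor Xpot. The exception there, Rpp40 of ribonuclease P, likewise had peaks only inside the gene. All 33 genes for tRNA modification were marked, such as the methyltransferases Nsun2 and Trmt1.

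Other genes transcribed by RNA polymerase III were mostly marked as well, apart from the 5S rRNA records. Of 9 such genes listed, 8 had a peak in all 4 libraries. They included Rn7sk, the RNA that restrains a transcription elongation factor, with 78.7 and 152 for H3K9cr and 60.6 and 162 for H3K9ac. Rpph1, the RNA of ribonuclease P, had 90.9 and 131 for H3K9cr and 71.3 and 167 for H3K9ac. Rmrp, Rn7s1, Rn7s2, Rny1 and Rny3 were also marked, and the record Rnu6 had no peak. Over all gene records the share with such a peak was 39.0%. Of the marked genes named here, Rn7sk, Rpph1, Rmrp, Rn7s1 and Rn7s2 lay within 5 kb of a coding end. At such distances 35.3% of other records of up to 200 bp were marked. Rny1 and Rny3 lay farther away, where 3.51% of such records were. Of 69 records of 5S rRNA, 1 had a peak in all 4 libraries (1.45%), n-R5s41, which the table calls a pseudogene. Over all records of up to 200 bp other than tRNA genes the share was 10.4%, and over those more than 5 kb from coding ends it was 3.51%. These 5S records, like the cysteine array of chromosome 6, are repeated copies, and the part of mapping in their values was not tested.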

How the data were processed

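Native ChIP-seq peaks of H3K9cr and H3K9ac in P19 cells were read from one deposited list per library, 2 libraries a mark; the 2 input libraries were not analysed here. Per the submitters' processing notes, the tools named were Bowtie2 2.4.1 and MACS2 2.2.7.1 and the build was GRCm38; the sources at hand do not state settings or the use of the inputs. Each list gives, per the file headers, a peak's pileup (the signal, or fragment coverage, at the summit), the authors' fold enrichment (a ratio to background) and −log10 of its p-value and q-value, as deposited; the lowest listed −log10 q was 2.02. Peaks were called in each library separately, so a difference between lists includes the threshold. Read depth is unknown, and intervals cover counting error only.

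Gene records came from RefSeq (GRCm38.p6); within each chromosome, 348 records after the first break in start order were left out as scaffold or patch records. A gene was marked when a peak in all 4 libraries lay within 1 kb; distances ran to either end of a coding gene, and clusters joined tRNA genes within 10 kb. Shares have 95% Wilson intervals. Marks were compared by exact two-sided permutation tests over 2 against 2 libraries, and by limma 3.58.1 (R 4.3.3) on the length covered by peaks, centred on each library's median, with Benjamini-Hochberg adjustment over all 20270 features; the scripts (Python 3.11.15, pandas 2.3.3, scipy 1.17.1) were tested on simulated data. Named were the 6 genes with the highest lowest-library percentile on either side of 5 kb, at most 1 per region, the 8 largest clusters, genes with 1 mark alone, methionine genes, and those differing most in covered length; others are said to have been chosen after their values were seen, or illustrate a list or a set. The members, lists and tests were chosen with earlier results of these data known. Alternatives were other windows (0, 0.5 and 2.5 kb), summits in place of peaks, peaks with −log10 q of at least 5, the strongest 26096 peaks of each list, coding distances of 2 and 10 kb, cluster gaps of 5 and 50 kb, a replicate block, no centring, features with a peak in any library, and each library left out. One marker gene and one neighbouring gene are not reported here.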

Additional observations from a re-analysis of the deposited data

How the results depend on the processing

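The count of marked tRNA genes, 256, ranged from 171 (a peak that overlaps the gene) to 262 (2.5 kb window) under the alternatives run. Requiring a peak to overlap the gene left 103 marked genes over 5 kb from coding ends, with 6 for H3K9cr alone and 1 for H3K9ac alone. Requiring a summit within 1 kb left 57 within 5 kb of coding ends and 1 for H3K9ac alone, and reversed the count difference between marks to -7 (exact permutation p = 0.333). H3K9cr alone went to 1 with the 2.5 kb window, with stricter peaks and with equal list lengths, and ranged from 2 to 5 with a library left out (5 without H3K9cr replicate 1). At 10 kb from coding ends the marked genes split into 105 beyond and 151 within. Over 5 kb from every other kind of gene record, an alternative chosen after seeing the data like the one without the cysteine array, there were 88. With a library left out, the difference in summit distance ranged from -3.5 bp (without H3K9ac replicate 1, a reversal) to 42 bp. Genes wider for H3K9cr by limma ranged from 0 to 4 in the same fits. There were 4 without H3K9cr replicate 1 (n-TEctc6, n-THgtg6, n-TLcag3 and n-TVcac11) and 2 without H3K9cr replicate 2 (n-TKctt13 and n-TRtcg3), where the lone library is assumed to vary like the others. Over all features, 115 were then wider for H3K9cr and 32 for H3K9ac of 20353, and 121 and 36 of 20332. With the 0.5 kb window 1 of 253 tRNA genes was wider for H3K9cr, n-TRtcg3, as were 81 of all 18609 features, with 5 wider for H3K9ac. A gap of 50 kb gave 33 clusters in place of 64. The cause of these changes was not tested. With the replicate number as a block, limma called 0 genes wider for H3K9cr and 0 for H3K9ac (16 and 7 at an unadjusted p of 0.05, which is 8.98% of tRNA genes, where 6.02% of all features passed). The deviations of covered length in same-numbered libraries had a correlation of 0.112 over the features, and the labels do not say that the numbers pair libraries. This value does not speak for fold enrichment, where Spearman's rho between same-numbered libraries of different marks was 0.968 and 0.980. The permutation tests made no use of the replicate number. Differences between marks moved in size without a call. That in genes with a peak went from 4.5 to 18.5 where a peak had to overlap the gene. That in covered length went from 57.25 bp to 0 with the 0 and 0.5 kb windows and to 118.5 bp with the 2.5 kb window. With a summit in the window, that in summit distance went from 18.75 to 2 bp and that in percentile from 3.98 to 1.14. The peak threshold limits what an absent peak can show.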
